A study of Mus musculus with 17 samples.

Results

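A set of 10 genes of glucose uptake and glycolysis was followed in alveolar epithelial type 2 (AT2) cells sorted from mouse lung, which secrete surfactant. The genes were chosen by symbol: Slc2a1, Hk1, Hk2, Pfkp, Pfkl, Aldoa, Pgk1, Eno1, Pkm and Ldha. They are 10 of the 43430 gene rows in each count table, and all 10 passed the filter on low counts in both. All 17 libraries came from C57BL/6J mice aged 2 months and the labels name no engineered allele. The poly(A) set holds 4 libraries of naive mice 24 hours after vehicle (saline in the titles) and 4 of naive mice 24 hours after ISRIB, a small molecule that relieves the translational block of the integrated stress response. In the total-RNA set 4 libraries are of naive mice and 5 of mice given bleomycin, a drug used to injure the lung, 14 days earlier. The labels put both of these groups on vehicle as well (saline in the titles). They give neither drug doses nor sex, and they do not say whether each library is 1 mouse, so p-values measure the spread between these libraries. Libraries are named by group and replicate number.

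Glycolysis splits 1 glucose into pyruvate in the cytosol and yields ATP without oxygen. Glucose enters cells through facilitative transporters such as GLUT1, is trapped by hexokinase, passes the committing step at phosphofructokinase, is cut by aldolase and is carried on to pyruvate through phosphoglycerate kinase, enolase and pyruvate kinase, after which lactate dehydrogenase can turn pyruvate into lactate. Many of these genes are targets of the hypoxia-inducible factors. AT2 cells are known to use both glucose and lactate as fuel, and to need glucose-derived carbon for surfactant lipid.

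Total counts ran from 10493574 to 15727139 per poly(A) library and from 3295257 to 6333166 per total-RNA library. Sftpc, the defining AT2 transcript, made up 10.02% to 11.02% of a poly(A) library, 3.58% to 3.89% of a naive total-RNA library and 1.88% to 3.93% of a bleomycin library. The 8 AT2 markers summed to 205750 to 214810 CPM in the poly(A) libraries, 86711 to 95749 CPM in naive and 49710 to 93929 CPM in bleomycin libraries, so AT2 transcripts were abundant in every library, with a wider and lower range after bleomycin. Bleomycin libraries also had fewer genes with a count (13940 to 17112, against 17108 to 19763 in naive libraries) and a lower range of ribosomal RNA-like counts (15.7% to 22.9% against 20.2% to 29.2%). The 10 genes together took 0.143% to 0.160% of the counts of a poly(A) library, 0.0579% to 0.0686% of a naive library and 0.0752% to 0.100% of a bleomycin library. Values below are CPM, read counts scaled to effective library size, and the 2 sets are never tested against each other, because kit, RNA input and depth all differ. Because these are bulk samples, fewer cells of a type and less RNA per cell cannot be told apart.

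Levels of different genes were set against each other per kilobase of annotated exon. In vehicle libraries Ldha, the lactate dehydrogenase subunit that favours pyruvate reduction, stood highest at 152 ± 16.3 CPM per kb (SD, n = 4), and Aldoa, the main aldolase, followed at 124 ± 2.02. Pkm, the pyruvate kinase gene, had 57.4 ± 2.14, and the ranges of these 3 did not overlap. Hk2 at 15.2 ± 2.06, Pgk1 at 14.4 ± 1.49 and Pfkl at 13.3 ± 0.678 had overlapping ranges between neighbours. Hk1 at 10.3 ± 0.352 and Slc2a1 at 9.04 ± 1.06 overlapped too, and Eno1 at 6.20 ± 0.633 and Pfkp at 1.61 ± 0.0972 were lowest. In naive total-RNA libraries Aldoa (44.7 ± 5.81 CPM per kb) and Ldha (43.1 ± 3.63) overlapped at the top, and Pkm (26.8 ± 1.84) and Hk2 (15.8 ± 2.93) again came next. At the bottom, Pfkp had 1.21 ± 0.234 and Eno1 0.975 ± 0.233 CPM per kb, with overlapping ranges. All exons of a model enter its length, so genes with long, rarely used exons, such as Pfkp with 13401 annotated bases, can be understated on this scale.

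Part of the sequence of some of these genes is repeated elsewhere in the genome. Of the 50-base words in the annotated Pgk1 transcripts, 53.9% also occur in another gene model, chiefly Pgk1-rs7 and Gm5537. For Eno1 the share is 26.0%, chiefly the retrocopy Eno1b and the gene model Gm4735, and for Pkm it is 25.8%. Ldha has 9.26% and Aldoa 6.43%, Pfkl has 0.0298%, and Slc2a1, Hk1, Hk2 and Pfkp share none. Eno1b itself held a mean of 0.128 CPM in naive and 0.144 CPM in bleomycin libraries, at the level of single reads. The sources used here do not say how reads matching several places were counted, so the levels of Pgk1, Eno1 and Pkm are uncertain, and any loss of reads was not tested.

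After bleomycin 5 of the 10 genes were higher and none passed the test lower. The enolase gene Eno1 rose most, 2.71-fold, and the hexokinase gene Hk1, Aldoa, Ldha and Pkm rose by 1.33-fold to 1.56-fold. The glucose transporter gene Slc2a1, Hk2, Pgk1 and both phosphofructokinase genes did not pass. Of all 11223 genes tested with edgeR at a Benjamini-Hochberg adjusted p of 0.05, 20.5% were called, 11.2% higher and 9.31% lower. Before adjustment 6 of the 10 had a p under 0.05, as did 33.3% of all genes. For 3 of the 10 (Hk1, Eno1 and Pkm) every bleomycin library lay above every naive one and for none below, against 19.7% of all genes without overlap, 10.4% above and 9.35% below. The median log2 fold change of the 10 genes was 0.37, against 0.0026 over all genes tested. The part of the lower gene number and ribosomal share of the bleomycin libraries in these differences was not tested, beyond a fit without ribosomal and mitochondrial gene models, which made the same 5 calls.

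**Figure D1:**
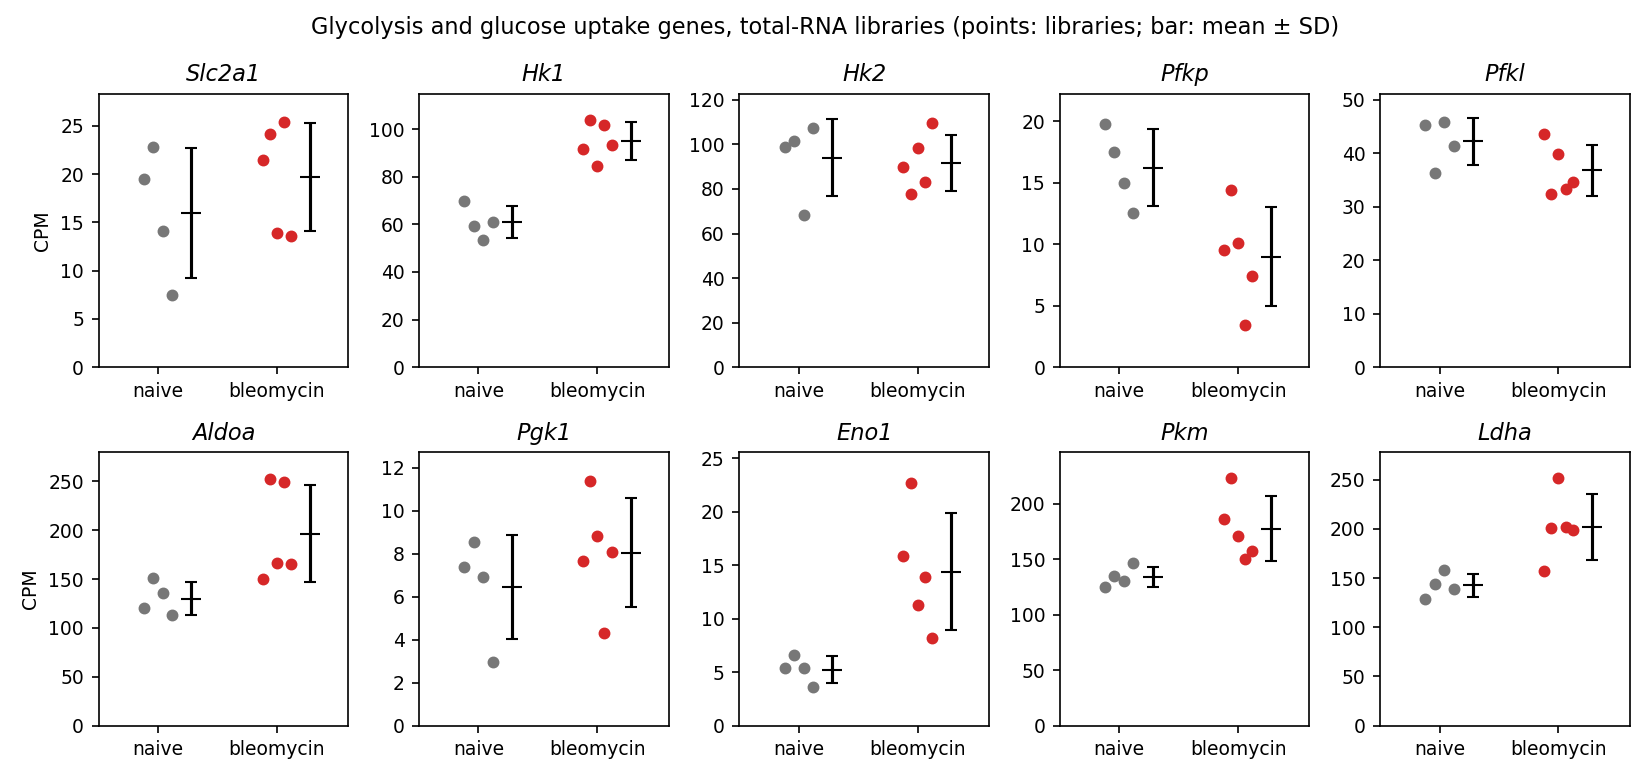
Level of each of the 10 genes in the total-RNA libraries, in CPM on a linear axis from 0, with 1 point per library (naive grey, bleomycin red) and the mean ± SD beside each group. For Hk1, Eno1 and Pkm every bleomycin point lies above every naive point, while Slc2a1, Hk2 and Pgk1 intermingle.

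Uptake came first in the order of the pathway. Slc2a1 (ENSMUSG00000028645, chromosome 4, 119108711 to 119137983, plus strand), which encodes GLUT1, had 19.5, 22.9, 14.1 and 7.45 CPM in naive libraries 1 to 4 and 21.4, 24.2, 13.9, 25.4 and 13.6 CPM in bleomycin libraries 1 to 5. The groups overlapped almost throughout, and the log2 fold change of 0.28 (SE 0.28) had an adjusted p of 0.534 by edgeR. Naive 4 held the lowest value on 25 counts.

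The hexokinases, which trap glucose in the cell as glucose-6-phosphate, behaved unequally. Hk1 (ENSMUSG00000037012, chromosome 10, 62268855 to 62379908, minus strand), the broadly expressed form, had 69.8, 59.4, 53.4 and 60.8 CPM in naive and 91.5, 103.9, 84.5, 101.8 and 93.3 CPM in bleomycin libraries. Each bleomycin library stood above each naive one, with means of 60.9 ± 6.75 (n = 4) and 95.0 ± 7.91 CPM (n = 5). Its log2 fold change was 0.64 (SE 0.12), with an adjusted p of 9.28e-04 by edgeR. Hk2 (ENSMUSG00000000628, chromosome 6, 82725025 to 82774454, minus strand), the inducible form, had 99.0, 101.5, 68.5 and 107.6 CPM in naive and 89.9, 78.0, 98.5, 83.2 and 109.6 CPM in bleomycin libraries, with overlapping groups. Its log2 fold change was -0.03 (SE 0.14, adjusted p 0.893). Of the hexokinase signal per kb, Hk1 took 19.2% to 22.2% in naive and 25.5% to 36.3% in bleomycin libraries, ranges that did not overlap, while the shares of Hk2 (36.7% to 48.6% and 34.5% to 46.6%) and of Hkdc1, a further hexokinase gene (31.0% to 42.7% and 23.6% to 36.1%), overlapped.

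Neither phosphofructokinase gene, of the committing step, passed the test. Pfkp (ENSMUSG00000021196, chromosome 13, 6579768 to 6648777, minus strand), the platelet-type subunit, had 19.8, 17.5, 15.01 and 12.5 CPM in naive libraries and 9.52, 14.4, 10.1, 3.403 and 7.44 CPM in bleomycin libraries. Only bleomycin 2 reached into the naive range. The log2 fold change of -0.83 (SE 0.30) had an adjusted p of 0.0582 by edgeR, which misses the threshold; without bleomycin 2 it was -1.06 with an adjusted p of 0.0169. Pfkp shares 748 exon bases with Pitrm1 on the opposite strand, a gene that was higher after bleomycin (log2 fold change 0.53, adjusted p 0.0196) and the sources used here do not say whether counting used strand. Pfkl (ENSMUSG00000020277, chromosome 10, 77986947 to 78010083, minus strand), the liver-type subunit, had 36.3 to 45.9 CPM in naive and 32.5 to 43.6 CPM in bleomycin libraries (log2 fold change -0.20, SE 0.14, adjusted p 0.370). Pfkl held 49.9% to 61.0% of the phosphofructokinase signal in naive and 52.6% to 59.0% in bleomycin libraries.

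Aldoa (ENSMUSG00000030695, chromosome 7, 126795234 to 126800751, minus strand), which splits fructose-1,6-bisphosphate, had 120.1, 150.8, 136.0 and 113.0 CPM in naive and 149.98, 252.5, 166.8, 249.1 and 165.3 CPM in bleomycin libraries. Bleomycin 2 and 4 were far above the rest, and the groups touched only at naive 2 and bleomycin 1. The means were 129.98 ± 16.9 (n = 4) and 197 ± 49.8 CPM (n = 5). This was 0.59 on the log2 scale (SE 0.16, adjusted p 0.0129 by edgeR). The call was lost without naive 1 (adjusted p 0.0502) and without naive 4 (0.0617). Aldoa took 91.6% to 95.1% of the aldolase signal per kb in naive libraries and 95.1% to 97.7% in bleomycin libraries, ranges that nearly touched.

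Downstream, Pgk1 (ENSMUSG00000062070, chromosome X, 106187100 to 106203699, plus strand), the first ATP-yielding enzyme, was thinly covered, with 10 to 40 counts per naive library and 14 to 63 per bleomycin library. It had 7.38, 8.55, 6.91 and 2.98 CPM in naive and 7.67, 11.4, 8.83, 4.33 and 8.08 CPM in bleomycin libraries, so that the groups overlapped (log2 fold change 0.33, SE 0.35, adjusted p 0.554). Eno1 (ENSMUSG00000063524, chromosome 4, 150236721 to 150248879, plus strand), the broadly expressed enolase, had 5.37, 6.62, 5.40 and 3.58 CPM in naive and 15.9, 22.7, 11.3, 13.9 and 8.23 CPM in bleomycin libraries. The groups did not overlap. They rested on 77 counts over the naive and 356 over the bleomycin libraries. The log2 fold change was 1.44 (SE 0.32, adjusted p 0.00363 by edgeR). Within the enolase family Eno1 took 19.0% to 28.7% of the signal per kb in naive and 40.9% to 77.6% in bleomycin libraries. The muscle-type gene Eno3 took 61.0% to 75.6% and 12.01% to 59.1% of it, though its own level, 4.75 ± 1.42 (n = 4) against 2.55 ± 2.30 CPM (n = 5), did not pass the test (log2 fold change -0.96, adjusted p 0.225 by edgeR). The naive shares rest on 12 to 31 Eno1 counts per library and on exon lengths of 5379 bases for Eno1 and 1739 for Eno3. In the poly(A) vehicle libraries the order was the reverse, with 71.2% to 76.7% for Eno1 and 22.1% to 26.7% for Eno3. Which gene leads in naive cells is therefore uncertain.

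Pkm (ENSMUSG00000032294, chromosome 9, 59656368 to 59679375, plus strand) had 124.8, 134.6, 130.0 and 146.3 CPM in naive and 186.2, 223.2, 170.6, 150.1 and 156.9 CPM in bleomycin libraries. All bleomycin libraries were higher, bleomycin 4 by the smallest margin, and the difference was 0.41 on the log2 scale (SE 0.13, adjusted p 0.0276 by edgeR). This was the least secure of the 5 calls, being lost without naive 1 (adjusted p 0.0975), naive 2 (0.0692), naive 3 (0.0815) or bleomycin 2 (0.0562). Counts per gene do not separate its 2 splice forms, PKM1 and PKM2. Ldha (ENSMUSG00000063229, chromosome 7, 46841475 to 46855627, plus strand) had 129.1, 144.2, 157.9 and 138.9 CPM in naive and 157.6, 200.7, 251.5, 201.7 and 198.8 CPM in bleomycin libraries. Only naive 3 and bleomycin 1 met, at nearly the same level, and the log2 fold change was 0.50 (SE 0.13, adjusted p 0.00919). Ldhb, the partner subunit that favours lactate oxidation, changed by -0.06 (adjusted p 0.792), and the Ldha share of both rose from 34.7% to 42.1% in naive to 42.7% to 51.5% in bleomycin libraries, ranges that did not overlap.

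**Figure D2:**
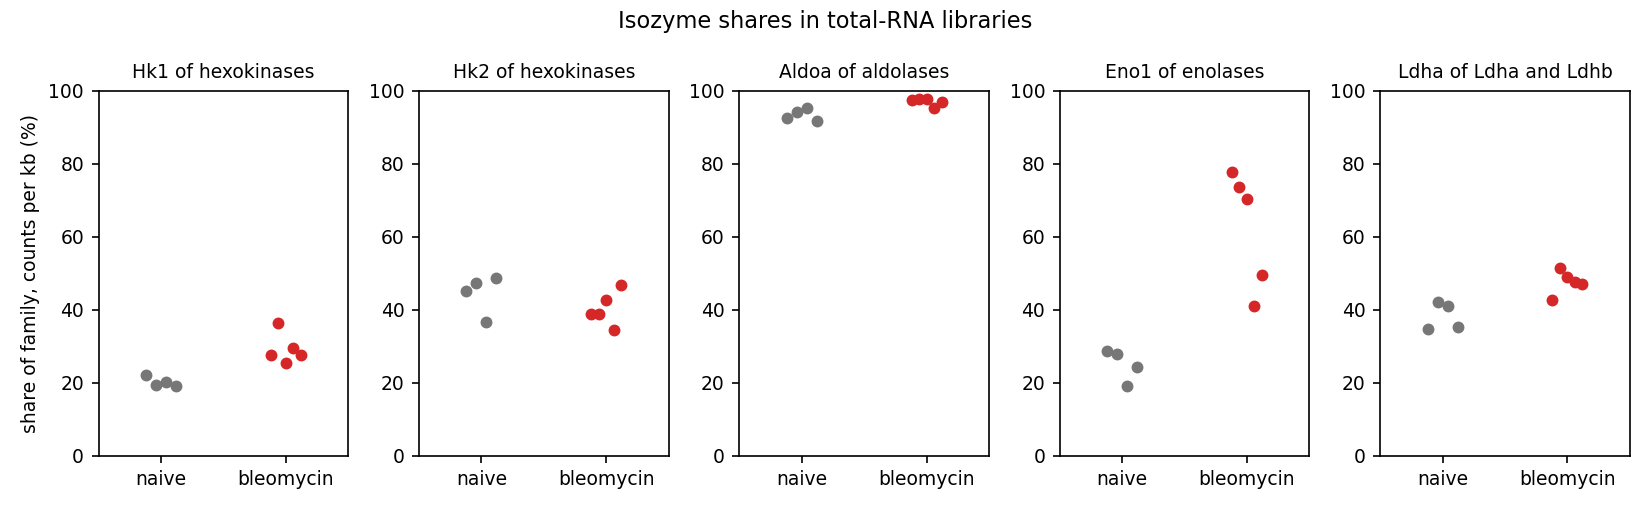
Share of its enzyme family taken by Hk1, Hk2, Aldoa, Eno1 and Ldha in each total-RNA library, in percent of counts per kilobase of exon, with 1 point per library. The Hk1, Aldoa, Eno1 and Ldha shares of bleomycin libraries lie above those of all naive libraries, and the Hk2 shares overlap.

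The promoters are shown for the hypoxia response element, bound by the hypoxia-inducible factors, the best known element that these genes have in common. Any part of this element in the 5 rises was not tested. The 10 genes matched 17 RefSeq start sites (GRCm38.p6), and the 250 bases before each were searched on both strands for the cores ACGTG and GCGTG. One or both occurred before 14 of the 17 starts, at least once for each of the 10 genes, against 38.6% of the 32817 windows of the same length before all RefSeq starts. Windows of 1 gene can overlap, and GC-rich windows hold such words more often, so the share is a description. The 4 windows below overlap no annotated exon. Further windows without annotated exon are not shown: a window of Hk1 without either core, and windows of Eno1 and Ldha that held GCGTG 1 time each. The starts without either core belonged to Hk1, Aldoa and Pkm, which were all called higher after bleomycin. Ldha and Aldoa were called higher after bleomycin and Pgk1 and Hk2 were not. Capitals mark either core on either strand, which reads as CACGT or CACGC on the other strand, and each line runs 5′ to 3′ toward the start.
Ldha, chr7:46845554-46845803 (+ strand): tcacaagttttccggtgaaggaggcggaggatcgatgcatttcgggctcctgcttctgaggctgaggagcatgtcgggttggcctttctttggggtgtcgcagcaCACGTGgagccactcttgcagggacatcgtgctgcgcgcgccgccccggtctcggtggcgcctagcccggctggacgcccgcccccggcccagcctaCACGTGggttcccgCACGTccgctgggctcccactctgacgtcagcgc
Aldoa, chr7:126799255-126799504 (- strand): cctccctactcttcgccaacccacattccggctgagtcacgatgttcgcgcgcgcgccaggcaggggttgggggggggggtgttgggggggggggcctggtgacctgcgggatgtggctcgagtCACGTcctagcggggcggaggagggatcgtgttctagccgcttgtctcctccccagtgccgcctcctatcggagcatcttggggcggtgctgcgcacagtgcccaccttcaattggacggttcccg
Pgk1, chrX:106186850-106187099 (+ strand): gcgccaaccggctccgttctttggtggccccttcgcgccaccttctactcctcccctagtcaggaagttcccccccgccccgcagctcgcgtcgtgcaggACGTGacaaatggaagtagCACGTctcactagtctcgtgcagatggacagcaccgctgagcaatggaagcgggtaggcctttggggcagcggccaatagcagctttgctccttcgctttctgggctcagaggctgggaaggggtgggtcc
Hk2, chr6:82774455-82774704 (- strand): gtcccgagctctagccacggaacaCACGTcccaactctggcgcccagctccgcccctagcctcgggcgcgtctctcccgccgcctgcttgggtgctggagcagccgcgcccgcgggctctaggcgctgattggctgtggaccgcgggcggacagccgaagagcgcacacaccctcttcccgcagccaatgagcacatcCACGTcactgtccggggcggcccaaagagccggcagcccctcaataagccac

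The Ldha window held ACGTG 5 times over both strands, because both copies of the palindrome CACGTG, the E-box, count on each strand. Such a palindrome occurred in 6.0% of all windows, against 16.6% for ACGTG alone and 28.1% for GCGTG. Pgk1 and Hk2 each held ACGTG 2 times and Aldoa 1 time, so genes that passed the test and genes that did not both carried the core. Neither word is evidence of binding.

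After ISRIB none of the 10 genes passed the threshold, where 2.2% of 12054 genes tested were called (1.1% higher and 1.1% lower). Before adjustment 3 of the 10 (Slc2a1, Hk2 and Ldha) had a p under 0.05, as did 16% of all genes tested. DESeq2 called 1 (Slc2a1, adjusted p 0.0421) and limma-voom none. The fold changes were small, from -0.34 for Slc2a1 to 0.24 for Hk2 on the log2 scale, 9 of them negative, with a median of -0.10 against -0.00014 over all genes.

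**Figure D3:**
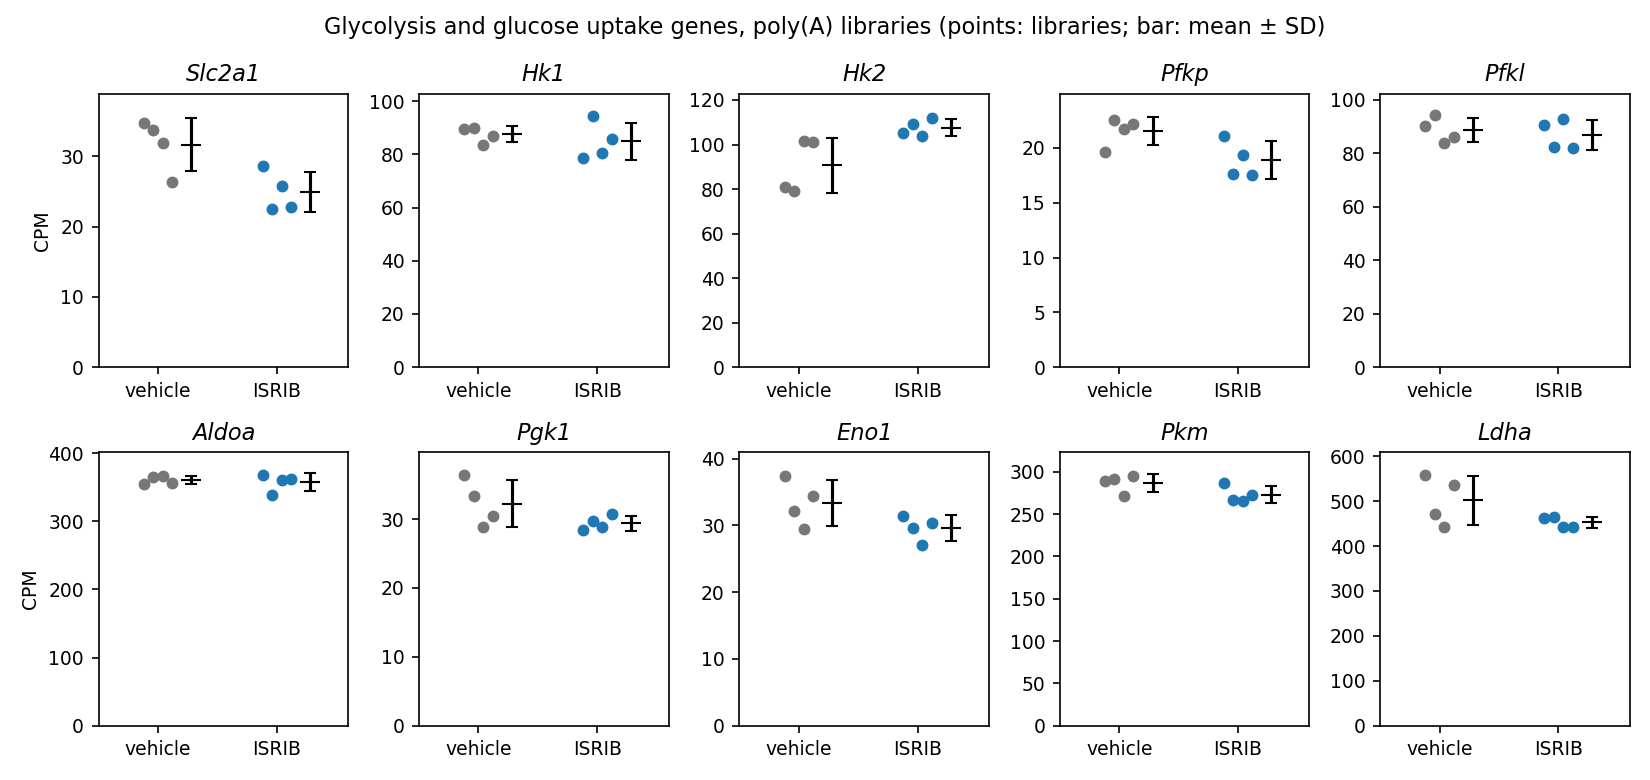
Level of each of the 10 genes in the poly(A) libraries, in CPM on a linear axis from 0, with 1 point per library (vehicle grey, ISRIB blue) and the mean ± SD beside each group. Hk2 is the 1 gene whose ISRIB points all lie above the vehicle points, and 3 of 4 ISRIB points of Slc2a1 lie below all vehicle points.

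Slc2a1 had 34.7, 33.7, 31.9 and 26.4 CPM in vehicle libraries 1 to 4 and 28.6, 22.5, 25.8 and 22.8 CPM in ISRIB libraries 1 to 4. Vehicle 4 and ISRIB 1 crossed, and the other libraries were separated. The log2 fold change of -0.34 (SE 0.10) had an adjusted p of 0.0810 by edgeR, which ranged from 0.00599 to 0.225 over the alternatives tried. It passed without vehicle 4 (0.0268) and without ISRIB 1 (0.0422).

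Hk2 leaned the other way, with 81.1, 79.1, 101.6 and 101.2 CPM after vehicle and 105.1, 109.4, 103.9 and 112.1 CPM after ISRIB. Vehicle 1 and 2 were low and vehicle 3 and 4 almost at the ISRIB level. No library crossed, and Hk2 was the 1 member of which this holds. Of all genes tested 8.65% did not overlap, 4.26% above and 4.39% below. The log2 fold change of 0.24 (SE 0.08) had an adjusted p of 0.113 by edgeR. Hk1 changed by -0.04 (SE 0.06), from 87.5 ± 3.00 to 84.9 ± 7.05 CPM (n = 4 each, adjusted p 0.810).

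Among the later enzymes Ldha had 558, 472, 442 and 535 CPM after vehicle and 461.5, 464, 443 and 443 CPM after ISRIB, with vehicle 1 and 4 high and the others close together. Its log2 fold change was -0.15 (SE 0.07, adjusted p 0.277 by edgeR). Ldhb had a log2 fold change of 0.16 (adjusted p 0.160), with every ISRIB library above every vehicle library. The Ldha share of the lactate dehydrogenase signal was 53.7% to 60.2% after vehicle and 50.6% to 52.7% after ISRIB, ranges that did not overlap, although neither gene passed alone. No isozyme share was tested in either set, and how often such shares separate by chance was not computed. Pfkp (-0.18), Eno1 (-0.16), Pgk1 (-0.13), Pkm (-0.07), Pfkl (-0.03) and Aldoa (-0.01) had adjusted p-values of 0.328 to 0.943. Aldoa, at 360.3 ± 5.87 and 357 ± 13.001 CPM (n = 4 each), differed by less than the spread within either group.

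**Figure D4:**
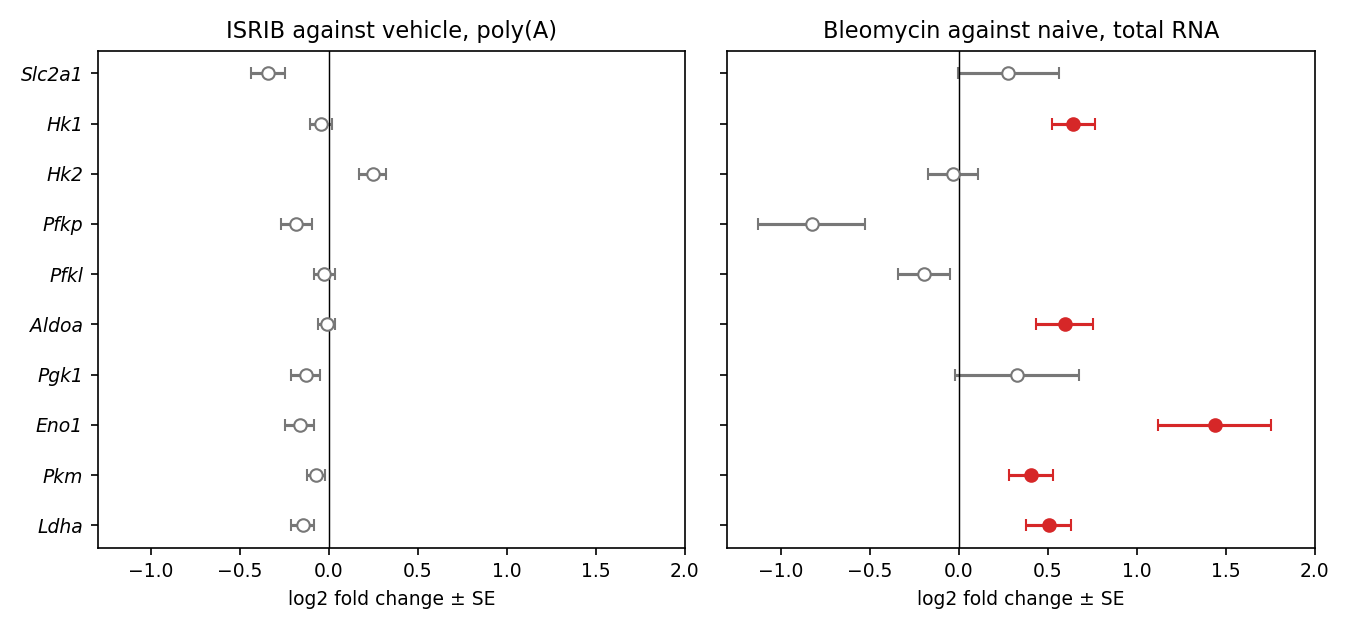
Log2 fold change ± SE of each of the 10 genes in each comparison, fitted separately by kit, with filled red points for an adjusted p under 0.05. After ISRIB all points lie between -0.34 and 0.24 and none is filled, and after bleomycin Hk1, Aldoa, Eno1, Pkm and Ldha are filled to the right of 0.

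The 2 comparisons share no library and were made with different kits, so their fold changes stand side by side without a test of the difference. Eno1 had 1.44 after bleomycin and -0.16 after ISRIB, Hk1 0.64 and -0.04, Ldha 0.50 and -0.15, and Hk2 -0.03 and 0.24.

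Across the 9 total-RNA libraries, log2 CPM rose and fell together most for Hk1 with Eno1 (Pearson r = 0.855), Aldoa with Eno1 (0.847) and Eno1 with Pkm (0.838). With group means removed, these values were 0.305, 0.620 and 0.541, and the highest were Pfkp with Pgk1 (0.813) and Slc2a1 with Eno1 (0.793). In the 8 poly(A) libraries Eno1 and Ldha had r = 0.915, or 0.868 within groups, while Slc2a1 and Hk2 had -0.853 and -0.681. In the total-RNA set Eno1 and Ldha had 0.637, or -0.197 within groups, and Slc2a1 and Hk2 had -0.383 and -0.387. These are descriptions over libraries that share group, kit and scaling. Among all other genes tested, the pattern of Hk1, which had the lowest p of the 10 after bleomycin, was most like that of Cdca3 (r = 0.981), Ccne1 (0.980) and Mns1 (0.979) over 9 libraries. For Slc2a1 over the 8 poly(A) libraries it was most like that of Eps8l1 (0.975), Kdr (0.971) and Btc (0.970). Group means were not removed for these best matches. Cdca3, Ccne1 and Mns1 were themselves called higher after bleomycin, by 2.43 or more on the log2 scale. Their r with Hk1 therefore includes the difference between the groups.

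The rest of the pathway was read from lists of related genes. Of 18 other glycolytic enzymes 11 were tested after bleomycin, and only Gapdh, the enzyme between aldolase and Pgk1, was higher, with 41.5 ± 6.19 CPM (n = 4) in naive and 88.5 ± 21.3 CPM (n = 5) in bleomycin libraries. That is 1.10 on the log2 scale (SE 0.17, adjusted p 1.69e-04 by edgeR). Tpi1 (0.27, adjusted p 0.220), Gpi1 (0.25, 0.235) and Pfkm (-0.20, 0.651) did not pass. Of 12 other hexose transporters 2 were tested, and Slc5a1, the sodium-coupled glucose transporter SGLT1, rose from 8.83 ± 1.36 to 45.4 ± 12.2 CPM, by 2.35 on the log2 scale (SE 0.22, adjusted p 9.95e-07 by edgeR), where Slc2a1 had 0.28. Slc2a3 had 16 counts over the naive and 48 over the bleomycin libraries and was not tested.

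Among 18 genes of lactate and pyruvate handling, 17 were tested after bleomycin, with 3 higher and 3 lower. Over all genes tested after bleomycin 11.2% were called higher and 9.31% lower, the share to set beside each list here. The monocarboxylate transporter gene Slc16a1 (log2 fold change 0.45, adjusted p 0.0201 by edgeR), its chaperone Bsg (0.40, 0.0202) and the pyruvate carboxylase gene Pcx (1.23, 9.95e-07) rose. Pdk1, a kinase that shuts off pyruvate dehydrogenase, fell by 0.84 on the log2 scale (adjusted p 0.00406), as did the pyruvate dehydrogenase phosphatase gene Pdp2 (-0.92, 0.0195) and the transporter gene Slc16a7 (-0.49, 0.0392). Of 14 glycogen genes 13 were tested, with Pygl (0.91), Pgm1 (0.77) and Gys1 (0.42) higher and Phkb (-0.63) lower. In the pentose phosphate pathway Taldo1 rose (0.55) and Rpia fell (-0.62) of 8 tested. Neither of the 2 gluconeogenesis genes tested was called. After ISRIB none of the genes tested in the lists of other enzymes (12), other transporters (5), lactate and pyruvate handling (18) and pentose phosphate (8) was called. An unadjusted p under 0.05 was found for 0 to 5 genes per list, and for 16% of all genes tested. Pygl was called higher in the glycogen list (0.38, adjusted p 0.0395 by edgeR), where 2.2% of all genes tested were called.

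Regulators of the pathway included genes called in both comparisons. After ISRIB 3 of 16 tested were higher, against 1.1% of all genes tested. They were the arrestin-family genes Txnip (log2 fold change 0.38, adjusted p 0.0373 by edgeR) and Arrdc4 (0.74, 0.0208), both known to restrain glucose uptake, and Pfkfb4 (0.26, 0.0208). Pfkfb4 sets the level of the phosphofructokinase activator fructose-2,6-bisphosphate. After bleomycin Txnip (0.61, 0.0327), Arrdc4 (1.43, 0.00367) and Trp53inp1 (0.68, 0.00357) were higher, and Mlxipl, the gene of the carbohydrate response factor ChREBP, fell by 1.25 (adjusted p 0.00637), as did Pfkfb2 (-0.37, 0.0334). These were 3 higher and 2 lower of 16 tested, where 11.2% of all genes tested were higher and 9.31% lower. Pfkfb3 had 1.52 after bleomycin without passing (0.0698). Hif1a had -0.01 (adjusted p 0.966) after bleomycin and 0.02 (0.905) after ISRIB. Of 16 hypoxia-responsive genes outside glycolysis 11 were tested after bleomycin, with a median log2 fold change of -0.11, and 1 passed, Vegfa (0.58, adjusted p 0.0256). After ISRIB none of 12 tested was called, with 2 at an unadjusted p under 0.05, against 16% of all genes tested.

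**Figure D5:**
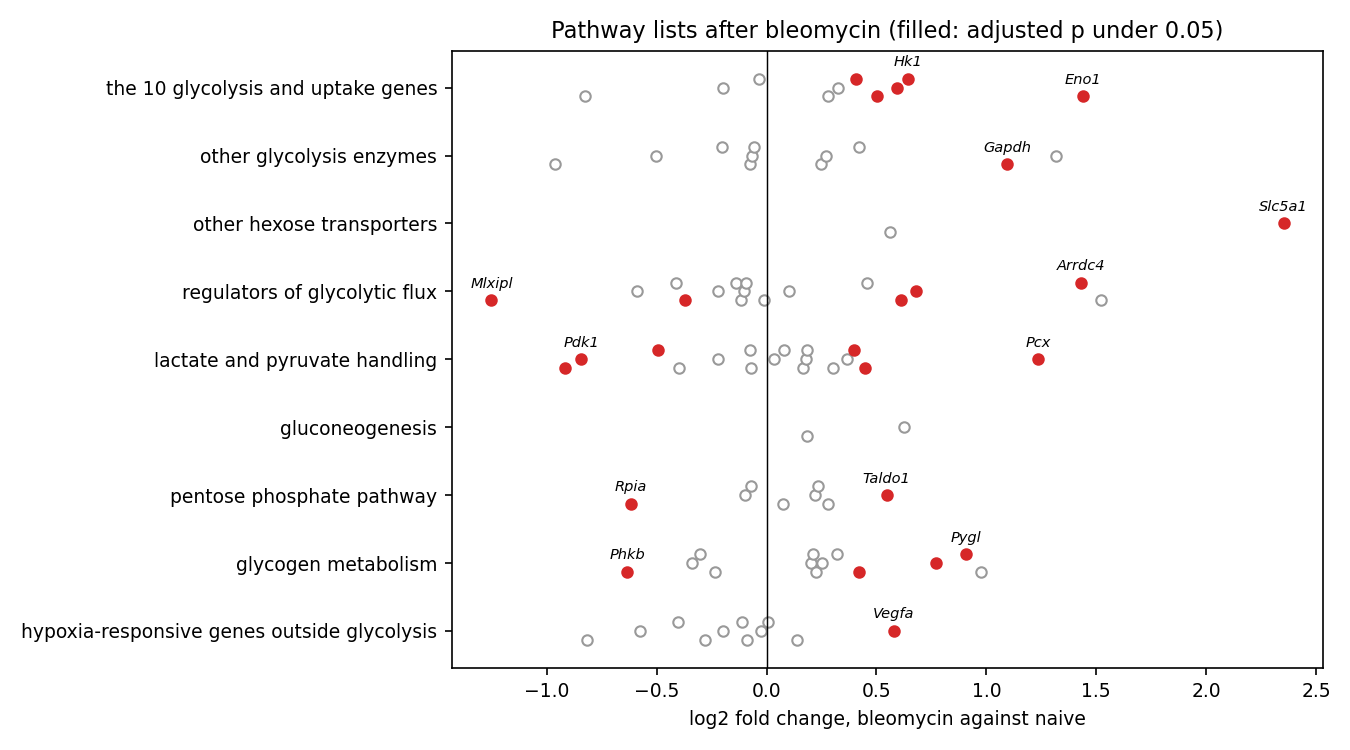
Log2 fold change after bleomycin of every tested gene in each list, 1 point per gene, with filled red points for an adjusted p under 0.05. The 5 filled points of the 10 genes all lie to the right of 0, Slc5a1 is the farthest right at 2.35, and the lists of regulators and of lactate and pyruvate handling have filled points on both sides.

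Markers of other cell types and states moved with the same 9 libraries. The 6 proliferation markers summed to 25.2 to 60.0 CPM in naive and 263 to 451 CPM in bleomycin libraries, with 4 of 5 tested called higher. With naive sums this low, some of these genes may have passed the filter through the bleomycin group, so their calls are no support. Over all genes tested 11.2% were called higher. The 7 markers of transitional epithelium summed to 384 to 459 and 795 to 1043 CPM, with all 7 higher, and the 7 alveolar type 1 markers to 1023 to 1250 and 1612 to 2180 CPM, with 5 of 7 higher. These 3 sums did not overlap between groups. Of the 8 AT2 markers 1 was lower, Etv5 (log2 fold change -0.43, adjusted p 0.0199 by edgeR), and none higher.

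The 7 fibroblast markers summed to 3.87 to 10.1 CPM in naive and 17.5 to 115 CPM in bleomycin libraries, again without overlap, and Lum was at 0 in all bleomycin libraries. Only the collagen genes Col1a1, Col1a2 and Col3a1 of this list were tested, with 18 to 41 counts each over the naive libraries, so they passed the filter through the bleomycin group and their calls are no support. Endothelial markers summed to 16.7 to 25.8 and 17.7 to 73.5 CPM, with 2 of 4 tested higher, and airway markers to 446 to 908 and 478 to 920 CPM, with 2 of 5 tested higher. The naive endothelial sums were low, so endothelial genes may have passed the filter in the same way, and their calls are no support. Bleomycin 2 had the highest Eno1, Hk1, Aldoa and Pkm, and also the highest fibroblast, proliferation, transitional, airway, macrophage and neutrophil sums. Bleomycin 1, next in fibroblast sum at 54.5 CPM, was also next in Eno1 and Pkm (15.9 and 186.2 CPM). In Aldoa and Ldha bleomycin 1 was the lowest of the 5 bleomycin libraries (149.98 and 158 CPM). The highest Ldha was in bleomycin 3 (251.5 CPM), the highest endothelial sum in bleomycin 5 (73.5 CPM) and the highest lymphocyte sum in bleomycin 4 (9.59 CPM). Nor did bleomycin 2 have the highest alveolar type 1, AT2 or erythroid sum. Macrophage and monocyte markers summed to 11.1 to 13.4 and 8.39 to 14.6 CPM, with none of 3 tested called and Adgre1, Marco, Ear2 and Itgax at 0 in all bleomycin libraries. Neutrophil markers reached at most 0.335 and 1.80 CPM, lymphocyte markers 8.55 and 9.59 CPM and erythroid markers 4.70 and 1.70 CPM. The part of any of these transcripts in the 5 rises was not tested.

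After ISRIB the transitional markers summed to 450 to 544 CPM, against 526 to 633 CPM after vehicle, with 1 of 7 lower, Krt19 (log2 fold change -0.40, adjusted p 0.0170 by edgeR). Etv5 of the AT2 list (-0.28, 0.00817) and Chil3 of the macrophage list (-1.84, 0.0440, on 59 and 17 counts) were also lower. The lymphocyte sum, nearly all of it Cd79b, was 15.8 to 17.4 CPM against 18.6 to 20.9 CPM, without overlap. Proliferation (57.7 to 80.3 against 49.0 to 113 CPM), endothelial (38.5 to 42.9 against 33.2 to 51.9), fibroblast (10.9 to 24.3 against 16.7 to 25.2), macrophage (26.3 to 28.3 against 22.7 to 33.4), alveolar type 1 (1827 to 2010 against 1890 to 2074) and airway sums (2361 to 4157 against 3824 to 4283) overlapped, with none of their other tested markers called. Their part in the values of the 10 genes was not tested.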

How the data were processed

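RNA-seq libraries were made from sorted mouse AT2 cells with a poly(A) kit from 3 ng of RNA (8 libraries) or a total-RNA kit from 0.35 ng (9 libraries), per the labels' protocols. The authors deposited raw read counts for 43430 Ensembl genes in each of 2 tables, a unit read from the values. The submitters' processing notes name bcl2fastq 2.19.1, FastQC, Trimmomatic 0.36, STAR 2.6.0 and HTSeq 0.11.2, and the mm10 build. The sources used here do not name the annotation, strand setting or treatment of multi-mapping reads. Symbols, positions and exon lengths were looked up by ID in GENCODE M21 (GRCm38), which named 42462 rows. Each kit was fitted alone (group as the only term) with edgeR 4.0.16 in R 4.3.3: filterByExpr (minimum count 10, minimum total 15), TMM and the two-sided quasi-likelihood F test, with Benjamini-Hochberg adjustment over all genes tested and a threshold of 0.05. The SE is the log2 fold change over the root of F. The procedure was tested on simulated data with known changes in 200 genes. The real fits called 2304 genes after bleomycin and 265 after ISRIB. Adjusted p-values depend on how many genes differ, so the simulated rates need not hold for the real fits. In the bleomycin comparison the procedure recovered 6.25% of the genes set to differ by 0.5 on the log2 scale and 49.5% of those set to differ by 1. That run made 57 calls, so its recovery may be understated for the real fit. In the ISRIB comparison it recovered 66.7% and 88%. Of the calls in these runs, 7.02% were false for bleomycin and 7.23% for ISRIB. A gene that did not pass after bleomycin may therefore still differ. Alternatives were other scaling, no filter, DESeq2 1.42.0, limma-voom 3.58.1, ribosomal and mitochondrial models left out, a replicate block and each library left out. Of the other lists, called genes were named, at most 4 per list, direction and comparison, plus Gapdh, Tpi1, Gpi1, Slc2a3, Pfkfb3, Ldhb, Pfkm and Hif1a. The 3 genes best correlated with the lowest-p member of each comparison were also named. Other names were chosen after their values were seen. The genes and lists were chosen with earlier results of these data known.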

Additional observations from a re-analysis of the deposited data

How the results depend on the processing

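After bleomycin the 5 calls and their directions were kept with RLE or upper-quartile factors, no filter, DESeq2, limma-voom, the replicate block, and ribosomal and mitochondrial models left out. Without single libraries 3 to 5 genes were called higher (3 without naive 1). Pfkp was the 1 gene called lower without the filter (log2 fold change -0.80), with DESeq2 (-0.83), with limma-voom (-0.87), with the replicate block (-0.86) and without bleomycin 2 (0 to 1 lower over the libraries left out). Without single libraries Hk2 ran from -0.161 to 0.0326, and all genes called from 1554 to 2584. Without the filter the median log2 fold change of all genes after bleomycin was -0.265. After ISRIB, Slc2a1 was the 1 gene called lower without the filter, with DESeq2, with the replicate block, without vehicle 4 and without ISRIB 1 (0 to 1 over the libraries left out), and Hk2 the 1 gene called higher without the filter (adjusted p 0.00961). Without single libraries Aldoa ran from -0.0242 to 0.0135 and Pfkl from -0.0569 to 0.0042. All genes called after ISRIB numbered 265, 648 without the filter, 408 with DESeq2, and 86 without vehicle 1, 102 without vehicle 2 and 159 without ISRIB 4 (86 to 269 over the libraries left out); the cause was not tested. Replicate numbers are not stated to pair libraries. Deviations of same-numbered libraries correlated by -0.109 to 0.0849 in the poly(A) and -0.0393 to 0.0474 in the total-RNA set. With so few libraries such values cannot exclude pairing. With the replicate block, 277 genes were called after ISRIB and 2187 after bleomycin, where bleomycin 5 has no partner. Dixon's gap rule flagged no single library value among 40 gene and group pairs. In groups of 4 or 5 this rule detects only extreme gaps, so outlying libraries are not excluded. Depth limits Pgk1 and Eno1 most, at 10 to 40 and 12 to 31 counts per naive library.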
